A study of Mus musculus with 21 samples.

Results

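The genes described are the translation initiation and elongation factors, chosen as every gene whose platform symbol begins with Eif or Eef followed by a digit, without Eif4enif1 and Eif2s3y. There were 57 such genes among the 15967 genes with 1 symbol on a mouse Illumina bead array, represented by 91 probes. Of these, 54 passed the detection filter and were among the 8527 genes tested. Eif2ak4, Eif5a2 and Eef1akmt2 were detected on no array and were not tested. The other 54 had to be detected on at least 2 arrays, so the tested genes are not a sample of the family that is blind to level. Eif1, Eif2s1, Eif2ak3, Eif3g, Eif4e1b and Eif4g1 have no probe under their symbol or gene ID in the annotation used and were not analysed here. Eif4e1b, the oocyte form of the cap-binding protein, is therefore missing from the comparison of cap-binding paralogues.

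Initiation factors bring the small ribosomal subunit and the initiator tRNA to the capped end of an mRNA, scan for the start codon and release the factors when the large subunit joins. Elongation factors then deliver the aminoacyl tRNAs and move the ribosome along the message. The mouse zygote begins with ribosomes and mRNAs made in the oocyte, and many maternal mRNAs are cleared as the embryonic genome becomes active at the 2-cell stage.

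The study measured pools of 20 embryos cultured in KSOM, and cultured embryonic stem (ES) cells, on 21 arrays in 8 groups. Interphase zygotes (3 arrays) were collected 24 to 28 h after hCG, mitotic zygotes (3 arrays) were held in mitosis with nocodazole at 32 to 34 h, and 2-cell embryos (2 arrays) were collected at 48 to 50 h. The remaining embryo groups were also aged 48 to 50 h. Drug controls (3 arrays) went through nocodazole exposure at mitosis with no transfer named in their label. Genomeless embryos (2 arrays) were enucleated, received no genome and were taken 22 to 24 h later. M phase transfer embryos (4 arrays) were taken 22 to 24 h after nuclear transfer, and interphase transfer embryos (2 arrays) had received a genome as interphase zygotes. ES cells made up the last 2 arrays. Neither the strain nor the donor cell of the transfers is stated in the labels, nor is the time from transfer for interphase recipients. Recipient stage and time from transfer therefore cannot be told apart. The SD of log2 differences was 0.117 between mitotic arrays A and C and 0.12 between arrays B and C of the drug controls. It was 0.28 to 1.477 in all 17 remaining pairs of same-group arrays. Both close pairs were averaged and each counted as 1 sample, since it may be 1 library hybridised again, which gave n = 3 for interphase zygotes, n = 4 for M phase transfer and n = 2 for every other group. Nothing in the labels says that samples came from separate collections of embryos, so p-values measure only the spread between these samples, which may be technical.

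Mean signal was 73.0 to 687.57 on 19 arrays and far lower on genomeless array B (11.25) and interphase transfer array B (12.79), both on chip 6. Oocyte markers were detected in every embryo group (6 or 7 of 8, with Zp2 undetected throughout). On both ES arrays 1 of the 8 was detected, Zp3. All 4 markers of the 2-cell stage on the array were detected in every 2-cell, drug control and M phase transfer array, and at most 1 in the other groups. ES cells had 7 of 7 ES markers on both arrays and none of the 2-cell markers. Embryos had some ES markers too: 3 of 7 on each zygote array and 4 or 5 on 2-cell, drug control and M phase transfer arrays. Interphase transfer arrays had 3 and genomeless arrays 1 to 3. ES cell array A carries a source label that names blood. Of 6 blood markers, 1 was detected on each ES array, and the other 5 were undetected on both. Granulosa and fibroblast markers were detected at no more than 1 gene an array. In pooled embryos, fewer cells and less RNA per cell cannot be told apart.

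Promoters of the RefSeq table (build GRCm38.p6, 250 bases before to 50 after the annotated start) were found for 44 of the 57 genes. The E-box CACGTG, a palindrome and so the same on both strands, is a site bound by Myc and related factors. It occurred in a promoter of 12 of these 44 genes (27.3%), against 8.09% of all 27025 genes in the table and 11.6% of the tested genes that could be matched. Among tested members the share was 26.8%. A start like that of terminal oligopyrimidine mRNAs (C and at least 4 further C or T bases, beginning within 4 bases of the annotated start) occurred in 15.9% of the 44 genes and in 16.4% of all genes, so that its share was near the background. The E-box stretches of the 5 genes that changed between mitotic zygotes and 2-cell embryos and hold this motif are shown because they come from both directions of that change. Capitals mark the E-box. Base numbers count from the annotated start of the promoter shown. For Eef1aknmt and Eef2k that start and the E-box lie inside the annotated span of the gene, and Eef2k has 3 annotated promoters. Eef1aknmt, Eif4h and Eif3f were higher in 2-cell embryos, and Eef2k and Eif1b were lower.
Eef1aknmt (chr1:162548463-162548516, minus strand, E-box from base -147): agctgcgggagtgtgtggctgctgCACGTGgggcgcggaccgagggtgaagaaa
Eif4h (chr5:134639476-134639529, minus strand, from base -96): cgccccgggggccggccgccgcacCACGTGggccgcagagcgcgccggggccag
Eif3f (chr7:108934323-108934376, plus strand, from base -68): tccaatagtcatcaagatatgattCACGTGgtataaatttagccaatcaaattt
Eef2k (chr7:120842776-120842829, plus strand, from base -31): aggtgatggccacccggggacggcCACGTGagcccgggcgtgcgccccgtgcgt
Eif1b (chr9:120492558-120492605, plus strand, from base -24): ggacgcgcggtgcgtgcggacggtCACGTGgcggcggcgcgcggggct
The motif is thus in promoters of genes that moved in opposite directions, and its presence is a description of the letters in the window.

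Detection differed between groups. With a detection p below 0.01, interphase zygote arrays detected 42 to 44 of the 57 genes, mitotic zygotes 44 to 45, 2-cell embryos 48 to 50, drug controls 46 to 48 and ES cells 47 to 51. M phase transfer arrays detected 40 to 46, interphase transfer arrays 36 and 23, and genomeless arrays 31 and 10. The lower number in each of the last pairs belongs to the dim array, whose part in the result was not tested. Over all probes, 4816 and 2426 were detected in genomeless and 5816 and 3412 in interphase transfer embryos, against 5555 to 8317 on the others. Interphase transfer array A, with 5816, was thus within the range of the others, and the remaining arrays of these groups were below it. Mean signal was 334.78 on genomeless array A and 535.14 on interphase transfer array A. Of the 57 genes, 6 were detected on all 21 arrays: Eif1b, Eif3f, Eif3i, Eif4ebp1, Eif6 and Eef1g. In genomeless embryos 24 genes were detected on neither array, against 12 on no array of mitotic zygotes and 6 on no array of 2-cell embryos.

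**Figure D1:**
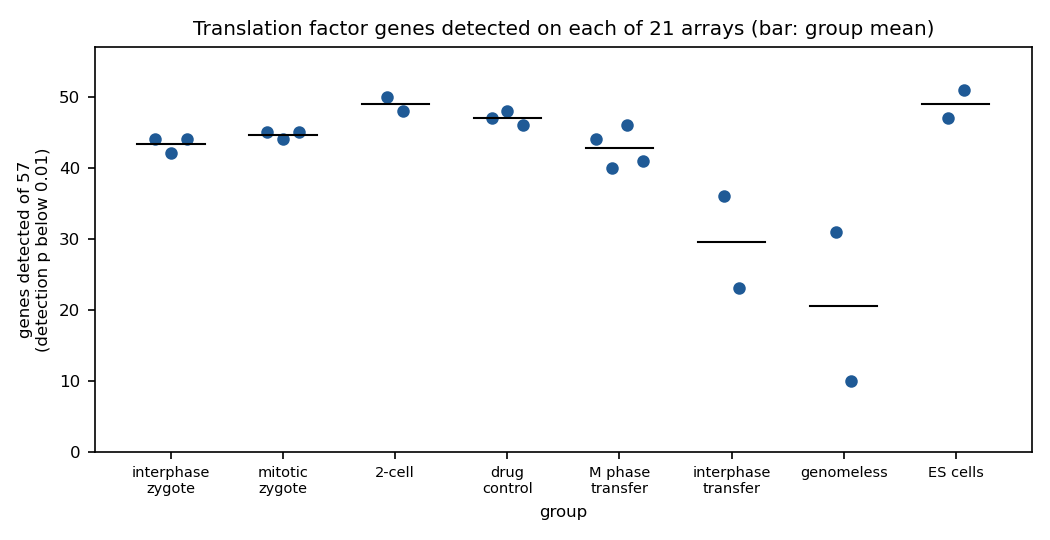
Number of the 57 translation factor genes detected on each array (y axis, genes) by group (x axis). Points are arrays and bars are group means. The 2 genomeless arrays (31 and 10 genes) and the 2 interphase transfer arrays (36 and 23) lie below all others (40 to 51).

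Levels are log2 of the background-corrected, quantile-normalised signal. They are relative to the other genes on the same array, and since each gene has a probe of its own they are compared only between samples of the same gene. A gene was called higher or lower when the adjusted p was below 0.05 in a limma fit over all 8527 genes and all groups, with Benjamini-Hochberg adjustment within each comparison. Where a gene is said to be called in no comparison, this fit is meant, with both dim arrays kept.

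**Figure D2:**
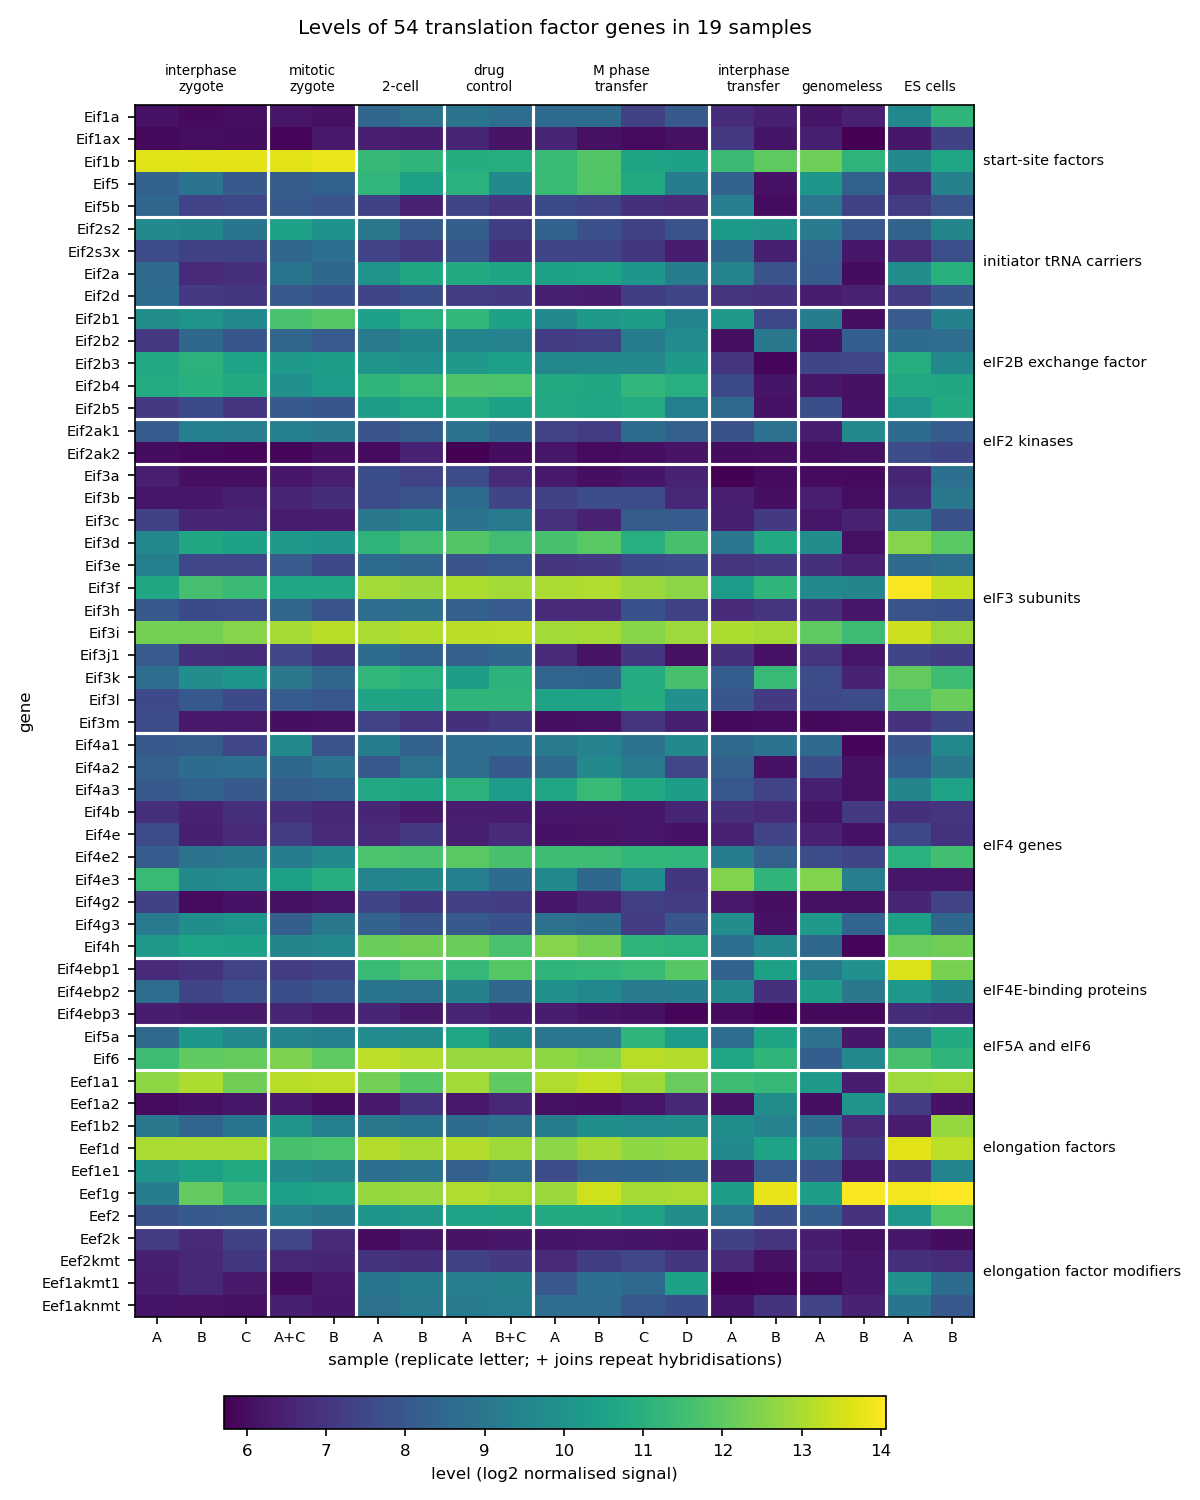
Levels of the 54 tested genes (rows, grouped by role) in 19 samples (columns, by group), as log2 normalised signal on the colour scale. Eif1b is brightest in zygotes, Eif3l, Eif4e2 and Eif4ebp1 are bright in 2-cell, drug control, M phase transfer and ES samples, and Eif4e3 is darkest in ES cells.

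From mitotic zygotes to 2-cell embryos, 12 of the 54 genes were called higher (22.2%) and 3 lower (5.56%), beside 13.9% higher and 13.8% lower among all genes tested. Their median log2 difference was 0.85 (0.73 with genes bounded by background at their bound), where the median of all genes was -0.02. On chip 4, which holds both groups, the members' median was 0.81. With chip as a block 11 were called higher and 1 lower. Scaling by the array median in place of quantile normalisation moved the median of all genes to -0.22, with a members' median of 0.31. Under it 3 members were called higher and 1 lower. The genes called lower with quantile normalisation, Eif1b, Eef2k and Eif2s2, all lost their call under median scaling. The share of all called genes that were higher was 50.1% and became 37.3% with median scaling and 39.4% in the deposited mean-scaled values. Leaving out 2-cell sample A or B, or either mitotic sample, left 10 to 12 genes called.

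Between interphase and mitotic zygotes no member was called, nor was any gene (0% of genes tested, limma, with 403 genes and 6 members at an unadjusted p below 0.05). Between drug controls and 2-cell embryos the count was also 0 (0% of genes tested, 96 genes and 0 members at an unadjusted p below 0.05), and the members' median difference was 0.01. A p above the threshold at n = 2 and n = 3 does not show that these groups had the same levels. With array quality weights some members were called between interphase and mitotic zygotes, as given below in the account of processing choices.

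Genomeless embryos had 17 of the 54 genes lower than mitotic zygotes (31.5%) and 1 higher (1.85%), beside 13.5% lower and 6.85% higher among all genes. The members' median was -1.10 (-0.79 with bounds) against -0.10 for all genes. These groups share no chip, and in the fit with chip as a block, which joins them only through other groups, 0 members were called. Without genomeless sample B 9 were called and without either mitotic sample 10, all lower. With both dim arrays left out, 12 of the 18 genes were called again. The share of called genes that were higher was 33.6% over all genes and fell to between 0.18% and 14.7% when signal was floored in place of the background model, scaled by the median or taken from the deposited scaled values.

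Drug controls had 25 of the 54 genes higher than genomeless embryos (46.3%) and 0 lower, beside 19.3% higher and 11.4% lower among all genes. The members' median was 1.51 (1.21 with bounds) against 0.03 for all genes, and within chip 6, with 1 array a group and the genomeless array dim, it was 1.89 against 0.15. With chip as a block 0 were called, and of those 25 genes 23 were called without the dim arrays. That setting also called 4 members lower in drug controls, Eif4e3 (-3.50 ± 0.95, adjusted p = 0.0127), Eif5b (-1.76 ± 0.54, adjusted p = 0.0223), Eif4g3 (-2.24 ± 0.77, adjusted p = 0.0382) and Eif4ebp2 (-1.45 ± 0.52, adjusted p = 0.0456), and 26 higher. Over all genes 62.8% of calls were higher, and this became 79.6% with floored signal and 98.6% with median scaling.

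Interphase transfer embryos had 20 genes lower (37%) and 3 higher (5.56%) than drug controls, beside 17.1% lower and 9.51% higher among all genes. The median was -1.16 (-1.02 with bounds), and -1.09 within chip 6, where all genes had -0.10 and the only interphase transfer array is dim. With chip as a block 0 were called, and without drug control sample B+C 15 were called, all lower. Floored signal gave 0 higher and 21 lower and median scaling 0 higher and 14 lower, so the 3 higher calls were lost under either setting. Over all genes 35.8% of calls were higher, against 20.2% and 1.81% under those settings.

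Between the transfer groups, 16 members were higher in M phase than in interphase recipients (29.6%) and 3 lower (5.56%), beside 17.8% and 11.4% of all genes. The median was 0.67, with 0.29 within chip 5 and 0.79 within chip 6, which each hold both groups. The only interphase transfer array on chip 6 is dim. With chip as a block 17 were called higher and 3 lower. Floored signal gave 17 higher and 0 lower, and median scaling 19 higher and 0 lower. Over all genes 61% of calls were higher, against 76.7% and 98.2%. M phase transfer embryos and drug controls differed in 0 of the 54 genes, beside 0.129% of all genes higher and 0.129% lower. Here 6 members and 673 genes had an unadjusted p below 0.05, and 41 of the 54 members were measured lower, with a median of -0.25 against 0.01 for all genes and -0.23 within chip 6. With median scaling the members' median was 0.13, beside a median of all genes of 0.28. Over all genes 50% of calls were higher, against 38.9% with floored signal and 71.4% with median scaling. With array quality weights some members were called between M phase transfer embryos and drug controls, as given below in the account of processing choices.

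Interphase transfer embryos had 2 members higher than genomeless embryos (3.7%) and 0 lower, beside 0.575% and 0.34% of all genes. The number called was 0 with floored signal or median scaling. It was 10 without genomeless sample A, 8 (5 higher and 3 lower) without interphase transfer sample A and 1 without sample B of either group. The medians were 0.36 in the whole comparison, 0.20 within chip 5 and 0.48 within chip 6, where the only array of either group is dim. Over all genes 62.8% of calls were higher, and 80% in the deposited scaled values. ES cells had 3 members higher (5.56%) and 2 lower (3.7%) than 2-cell embryos, beside 8.4% and 6.98% of all genes, and these groups share no chip. Median scaling left 1 higher and 0 lower, floored signal gave 3 and 1, and leaving out 2-cell sample A or B left 1 call and leaving out ES sample B left 3. Over all genes 54.6% of calls were higher, and 82.7% with median scaling.

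**Figure D3:**
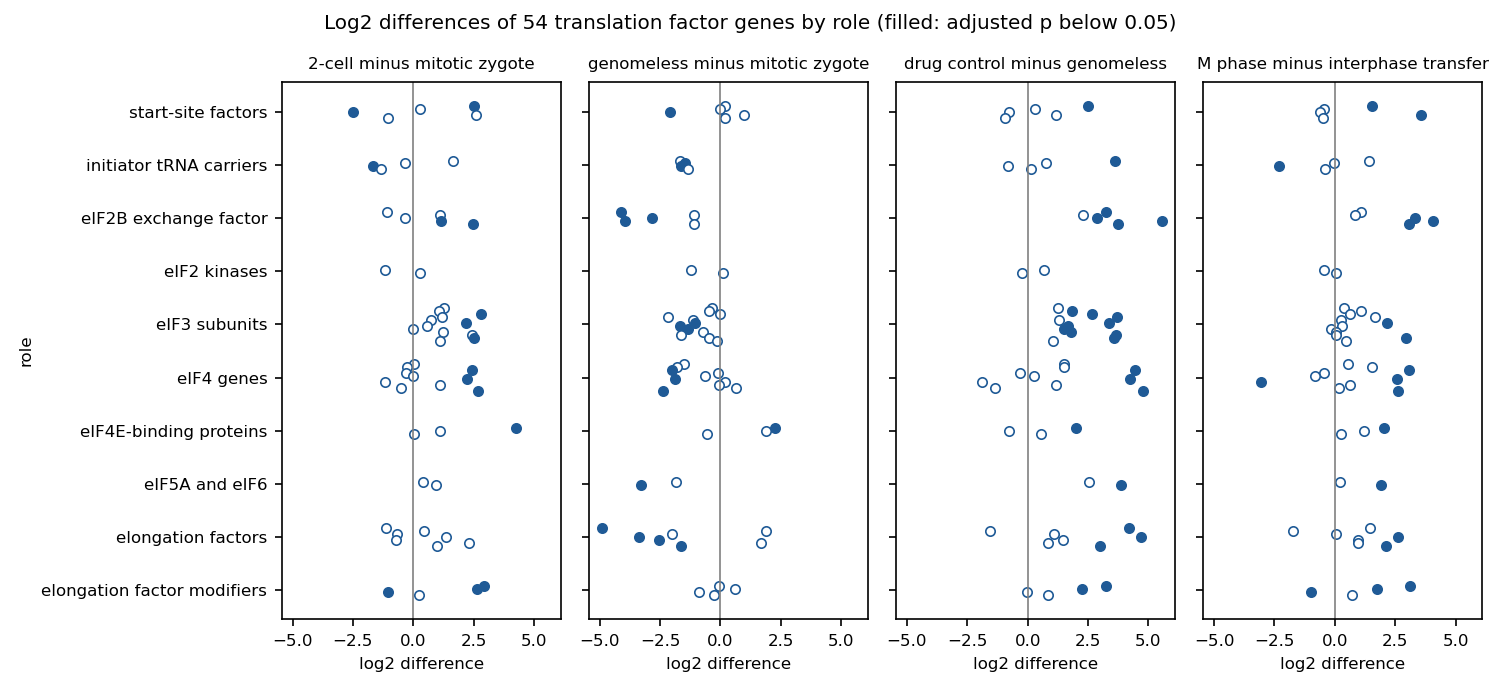
Log2 difference (x axis) of each of the 54 genes by role (y axis) in 4 comparisons, with filled points for an adjusted p below 0.05. In genomeless minus mitotic zygote the 3 filled eIF3 points lie left of 0, and the 2-cell panel holds 12 filled points to the right and 3 to the left.

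Among start-site factors, which position the scanning ribosome on the AUG, Eif1a and Eif1b moved in opposite directions. Eif1a is the autosomal gene for eIF1A, and its level was 6.11, 5.92 and 6.02 in interphase zygotes and 6.20 and 6.07 in mitotic zygotes, in which it was detected on no array. It was 8.46 and 8.85 in 2-cell embryos, 8.92 and 8.74 in drug controls and 9.61 and 11.16 in ES cells. It was 8.62, 8.67, 7.32 and 8.04 after M phase transfer, 6.78 and 6.46 after interphase transfer and 6.18 and 6.48 without a genome. The gene was thus detected on all 11 arrays of 2-cell, drug control, M phase transfer and ES samples and on none of the other 10, and the levels of these classes do not overlap. It was at least 4.54-fold higher in 2-cell embryos than in mitotic zygotes (adjusted p = 0.00142, limma), at least 1.76-fold higher in drug controls than in genomeless embryos (adjusted p = 0.0013) and at least 1.61-fold higher in M phase than in interphase transfer embryos (adjusted p = 0.0116). These folds are lower bounds, the brighter group against the lowest signal well above background on the dimmer arrays. Without the dim arrays the last of these missed the threshold (log2 difference 1.38 ± 0.54, adjusted p = 0.0675). With median scaling none of the differences given as folds was called. The call against genomeless embryos was also lost with chip as a block, and that between the transfer groups with array weights. ES cells exceeded 2-cell embryos by 1.73 ± 0.48 (adjusted p = 0.0231) on the log2 scale. This call was lost with floored signal or median scaling, and without either 2-cell sample or ES sample B.

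Eif1ax, the X-linked gene for the same factor, did not share this pattern. Its level was 5.93, 6.03 and 5.99 in interphase zygotes, 5.87 and 6.28 in mitotic zygotes, 6.40 and 6.34 in 2-cell embryos and 6.59 and 6.15 in drug controls. It was 6.62, 6.08, 5.94 and 6.09 in M phase transfer, 7.11 and 6.17 in interphase transfer, 6.44 and 5.71 in genomeless and 6.24 and 7.32 in ES samples. It was detected on 3 of 21 arrays, 1 each of the M phase transfer, interphase transfer and ES groups, and was called in no comparison. Whether Eif1a and Eif1ax differ from each other in their response was not tested.

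Eif1b, a paralogue of the start-codon factor eIF1, was highest in zygotes, with 13.64, 13.70 and 13.72 at interphase and 13.68 and 13.82 in mitosis. It was 11.32 and 11.18 in 2-cell embryos, 10.89 and 10.92 in drug controls, 11.33, 11.84, 10.58 and 10.48 in M phase transfer and 9.65 and 10.66 in ES samples. In interphase transfer embryos it was 11.40 and 11.98 and in genomeless embryos 12.21 and 11.13. All zygote samples exceeded all others. The log2 difference was -2.50 ± 0.47 (adjusted p = 0.00134) from mitotic zygotes to 2-cell embryos and -2.08 ± 0.47 (adjusted p = 0.00719) from mitotic zygotes to genomeless embryos. Eif1b was thus called lower than in mitotic zygotes both in a group with a genome and in the group without. The first call was lost with median scaling and the second with chip as a block. Without the dim arrays the second difference was -1.54 ± 0.51 (adjusted p = 0.0499).

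Eif5, which makes eIF2 hydrolyse its GTP at the start codon, varied within groups. Its level was 8.32, 8.88 and 8.06 in interphase zygotes, 8.18 and 8.29 in mitotic zygotes, 11.19 and 10.50 in 2-cell embryos and 11.05 and 9.72 in drug controls. It was 11.35, 11.80, 10.77 and 9.22 in M phase transfer, 8.32 and 6.12 in interphase transfer, 10.12 and 8.31 in genomeless and 6.63 and 9.35 in ES samples. The difference of 2-cell embryos from mitotic zygotes, 2.61 ± 0.98 (adjusted p = 0.0622), was not called. Interphase transfer embryos differed from drug controls by -3.17 ± 0.98 (adjusted p = 0.0278) and M phase transfer embryos exceeded interphase transfer embryos by 3.57 ± 0.85 (adjusted p = 0.00578). Both calls were lost without the dim arrays, at -2.07 ± 1.07 (adjusted p = 0.159) and 2.46 ± 0.97 (adjusted p = 0.0687). The first was also lost without drug control sample A. Eif5b, which joins the ribosomal subunits, lay between 5.99 and 9.27 and was called in no comparison. With the dim arrays left out, its log2 difference was -1.76 for drug control minus genomeless, 2.03 for interphase transfer minus drug control and -2.13 for M phase minus interphase transfer.

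Of the proteins that carry the initiator tRNA, only Eif2s2 was called between mitotic zygotes and 2-cell embryos. Eif2s2, the beta subunit of eIF2, was 9.70, 9.54 and 8.96 in interphase and 10.48 and 9.96 in mitotic zygotes, 9.02 and 8.09 in 2-cell embryos and 8.24 and 7.26 in drug controls. It was 8.35, 7.76, 7.33 and 7.89 in M phase transfer, 10.26 and 10.07 in interphase transfer, 9.15 and 8.01 in genomeless and 8.36 and 9.52 in ES samples. Both interphase transfer samples lay between the mitotic samples, and drug controls and M phase transfer samples were at most 8.35. The differences were -1.67 ± 0.52 (adjusted p = 0.0277) from mitotic zygotes to 2-cell embryos, 2.42 ± 0.52 (adjusted p = 0.00344) for interphase transfer minus drug control and -2.33 ± 0.45 (adjusted p = 0.00144) for M phase minus interphase transfer. A second probe of the gene gave -1.92, 0.94 and -0.78 for these. The call against mitotic zygotes was lost without either mitotic sample or 2-cell sample B (adjusted p up to 0.273 over all alternatives), and that against drug controls without drug control sample B+C. Eif2a, an alternative carrier, was higher in drug controls than in genomeless embryos by 3.62 ± 0.78 (adjusted p = 0.00281). Eif2d was lower in genomeless embryos than in mitotic zygotes (adjusted p = 0.0497) with no bound above 1, since it was detected on neither genomeless array. Eif2s3x, the gamma subunit, was called in no comparison. With the dim arrays left out, its log2 difference was -1.43 for M phase minus interphase transfer.

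The guanine exchange factor eIF2B recharges eIF2 with GTP. Eif2b4, its delta subunit, was 10.86, 11.01 and 10.81 in interphase zygotes, 9.92 and 10.34 in mitotic zygotes, 11.18 and 11.36 in 2-cell embryos and 11.77 and 11.70 in drug controls. It was 10.83, 10.72, 11.22 and 10.93 in M phase transfer, 7.59 and 6.17 in interphase transfer, 6.24 and 6.09 in genomeless and 10.75 and 10.68 in ES samples. Interphase transfer and genomeless samples reached at most 7.59 and every other sample at least 9.92. The gene was detected on neither genomeless array and was at least 4.35-fold lower there than in mitotic zygotes (adjusted p = 3.36e-05) and at least 13.2-fold lower than in drug controls (adjusted p = 3.6e-07). Interphase transfer embryos, with 1 of 2 arrays detected, differed from drug controls by -4.86 ± 0.37 (adjusted p = 1.05e-06), and M phase transfer embryos exceeded them by 4.05 ± 0.32 (adjusted p = 7.52e-07).

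Eif2b3, the gamma subunit, was also lowest in interphase transfer and genomeless samples. It was 10.75, 11.07 and 10.56 and 10.24 and 10.36 in interphase and mitotic zygotes, 10.02 and 9.89 in 2-cell embryos, 10.24 and 10.42 in drug controls and 9.57, 9.66, 9.59 and 10.21 in M phase transfer. It was 7.01 and 5.83 in interphase transfer, 7.46 and 7.49 in genomeless and 10.92 and 9.63 in ES samples. The log2 difference was -2.83 ± 0.43 (adjusted p = 0.00073) for genomeless minus mitotic zygote, -3.91 ± 0.43 (adjusted p = 1.7e-05) for interphase transfer minus drug control and 3.34 ± 0.37 (adjusted p = 1.55e-05) for M phase minus interphase transfer.

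Eif2b5, the catalytic epsilon subunit, differed from Eif2b3 and Eif2b4 in being low in zygotes, at 7.10, 7.59 and 6.98 and 8.07 and 7.95. It was 10.37 and 10.61 in 2-cell embryos, 10.86 and 10.48 in drug controls and 10.76, 10.65, 10.85 and 9.33 in M phase transfer. It was 8.55 and 6.12 in interphase transfer, 7.71 and 6.13 in genomeless and 10.15 and 10.80 in ES samples. It rose by 2.48 ± 0.70 (adjusted p = 0.0164) to the 2-cell stage, and M phase transfer exceeded interphase transfer embryos by 3.06 ± 0.60 (adjusted p = 0.00163). Eif2b1, the alpha subunit, was 9.83, 10.04 and 9.61 in interphase zygotes, 11.65 and 11.87 in mitotic zygotes, 10.42 and 10.95 in 2-cell embryos and 11.24 and 10.48 in drug controls. It was 9.68, 10.21, 10.37 and 9.49 in M phase transfer, 10.19 and 7.52 in interphase transfer, 9.25 and 6.01 in genomeless and 8.11 and 9.37 in ES samples. The genomeless samples differ widely, with the dim array lowest, and the difference from mitotic zygotes was -4.13 ± 0.89 (adjusted p = 0.00582) with both and -2.51 ± 0.52 (adjusted p = 0.00571) without the dim arrays. Eif2b2, the beta subunit, was called in no comparison. With the dim arrays left out, its log2 difference was 3.32 for drug control minus genomeless, -3.44 for interphase transfer minus drug control and 2.36 for M phase minus interphase transfer. Only sample A then stands for the genomeless and interphase transfer groups. In all, 3 of the 5 eIF2B genes were lower in genomeless embryos than in mitotic zygotes (13.5% of all genes were) and 4 of 5 were higher in drug controls than in genomeless embryos (19.3% of all genes), and 0 in either comparison with chip as a block. The Eif2b1 call against mitotic zygotes was also lost without genomeless sample B.

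The eIF2 kinases slow initiation by phosphorylating eIF2. Eif2ak2, the kinase activated by double-stranded RNA, was detected on 2 of 21 arrays, those of ES cells, at 7.68 and 7.46. It was 6.0, 5.89 and 5.83 in interphase zygotes, 5.86 and 6.04 in mitotic zygotes, 5.94 and 6.53 in 2-cell embryos and 5.72 and 5.98 in drug controls, 6.21, 5.96, 6.01 and 6.15 after M phase transfer, 6.0 and 6.05 after interphase transfer and 6.03 and 6.10 without a genome. ES cells were at least 1.99-fold higher than 2-cell embryos. The gene passed the detection filter only through the ES arrays, where it is high, so this is a description and no p is given, although the gene is among the 3 counted as higher in ES cells. Eif2ak1, the heme-regulated kinase, was detected on 20 of 21 arrays, lay between 6.34 and 9.64 and was called in no comparison. Both ends of that range are genomeless samples, with 9.64 on the dim array. With the dim arrays left out, its log2 difference was -2.89 for genomeless minus mitotic zygote and 2.31 for drug control minus genomeless. These values rest on genomeless sample A alone.

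The eIF3 complex binds the small subunit and holds the other factors, and 12 of its genes were tested. In 2-cell embryos 3 of the 12 (25%) were called higher than in mitotic zygotes, beside 13.9% of all genes, with a median of 1.22. In genomeless embryos 3 (25%, beside 13.5% of all genes) were called lower than in mitotic zygotes, with a median of -0.88. Drug controls exceeded genomeless embryos in 9 called genes (75%, beside 19.3% of all genes) and interphase transfer embryos lay below drug controls in 6 (50%, beside 17.1%). In the fit with chip as a block, none of these genomeless or drug control calls was kept. M phase transfer embryos were measured below drug controls in all 12, with a median of -0.72 and 0 called. Of these 12, Eif3a, Eif3c and Eif3m were detected on no mitotic and no genomeless array, so their order between these groups has no meaning. Eif3i was at 13.04 in both mitotic zygotes and 2-cell embryos. The called genes at the 2-cell stage were Eif3c, Eif3f and Eif3l.

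Eif3l was 7.55, 8.01 and 7.58 in interphase zygotes, 8.13 and 7.99 in mitotic zygotes, 10.59 and 10.60 in 2-cell embryos and 11.18 and 11.18 in drug controls. It was 10.52, 10.55, 10.89 and 9.93 in M phase transfer, 7.94 and 7.14 in interphase transfer, 7.56 and 7.61 in genomeless and 11.72 and 12.16 in ES samples. Every 2-cell, drug control, M phase transfer and ES sample had at least 9.93 and every other sample at most 8.13. The log2 difference was 2.53 ± 0.34 (adjusted p = 0.00011) from mitotic zygotes to 2-cell embryos, -3.63 ± 0.34 (adjusted p = 4.16e-06) for interphase transfer minus drug control and 1.35 ± 0.34 (adjusted p = 0.0147) for ES cells minus 2-cell embryos, and a second probe gave 2.32, -3.59 and 1.16. The last call was lost without either 2-cell sample or ES sample B. Eif3c was 7.31, 6.62 and 6.59 in interphase zygotes, 6.37 and 6.38 in mitotic zygotes, 9.01 and 9.38 in 2-cell embryos and 8.92 and 9.14 in drug controls. It was 6.91, 6.49, 8.18 and 8.13 in M phase transfer, 6.43 and 7.14 in interphase transfer, 6.21 and 6.54 in genomeless and 9.13 and 7.79 in ES samples. It was at least 6.6-fold higher in 2-cell embryos than in mitotic zygotes (adjusted p = 0.00195). A second probe, detected on 8 arrays, gave a log2 difference of 1.10 where the tested probe gave 2.81. The M phase transfer samples of chip 5 (A and B) lay near the zygotes and those of chip 6 (C and D) above them.

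Eif3f was 10.73, 11.61 and 11.39 in interphase zygotes, 10.66 and 10.63 in mitotic zygotes, 12.89 and 12.79 in 2-cell embryos and 13.02 and 12.91 in drug controls. It was 13.01, 13.08, 12.82 and 12.61 in M phase transfer, 10.30 and 11.18 in interphase transfer, 9.65 and 9.52 in genomeless and 13.97 and 13.31 in ES samples. It rose by 2.20 ± 0.35 (adjusted p = 0.000438) to the 2-cell stage. Eif3i, detected on all arrays, had 12.30, 12.32 and 12.54 in interphase zygotes, 12.93 and 13.15 in mitotic zygotes, 12.99 and 13.09 in 2-cell embryos and 13.21 and 13.22 in drug controls. It had 12.90, 12.93, 12.59 and 12.83 in M phase transfer, 13.04 and 12.92 in interphase transfer, 11.98 and 11.42 in genomeless and 13.44 and 12.86 in ES samples. Only the genomeless samples lay below 12.30, and Eif3i was 1 of the 2 genes that differed between interphase transfer and genomeless embryos, by 1.28 ± 0.28 (adjusted p = 0.0464). That call was kept in 6 of 17 alternatives, and not without the dim arrays (1.06 ± 0.34, adjusted p = 0.193).

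Among the cap-binding paralogues, Eif4e2 and Eif4e3 differed between groups in different ways and Eif4e was called in no comparison. Eif4e, the cap-binding subunit itself, was 7.64, 6.45 and 6.74 in interphase zygotes, 7.16 and 6.73 in mitotic zygotes, 6.73 and 7.14 in 2-cell embryos and 6.46 and 6.69 in drug controls. It was 6.11, 6.14, 6.21 and 6.11 in M phase transfer, 6.51 and 7.41 in interphase transfer, 6.48 and 6.12 in genomeless and 7.52 and 6.92 in ES samples. It was detected on 10 of 21 arrays, none of them from genomeless or transfer embryos.

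Eif4e2, a cap-binding protein that represses the mRNAs it holds, was 8.14, 8.92 and 9.10 in interphase zygotes, 9.25 and 9.63 in mitotic zygotes, 11.69 and 11.65 in 2-cell embryos and 11.91 and 11.63 in drug controls. It was 11.47, 11.42, 11.24 and 11.19 in M phase transfer, 9.24 and 8.26 in interphase transfer, 7.63 and 7.47 in genomeless and 11.03 and 11.52 in ES samples. All samples of 2-cell, drug control, M phase transfer and ES groups had at least 11.03 and all others at most 9.63. It rose by 2.23 ± 0.37 (adjusted p = 0.000521) to the 2-cell stage, and drug controls exceeded genomeless embryos by 4.22 ± 0.37 (adjusted p = 2.62e-06). A second probe, detected on 6 arrays, gave -0.09 and 0.43 for these.

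Eif4e3, a paralogue that binds the cap in a different way, was 11.38, 9.65 and 9.73 in interphase zygotes, 10.47 and 10.90 in mitotic zygotes, 9.47 and 9.55 in 2-cell embryos and 9.33 and 8.64 in drug controls. It was 9.67, 8.53, 9.76 and 7.04 in M phase transfer, 12.48 and 11.16 in interphase transfer, 12.48 and 9.28 in genomeless and 6.23 and 6.22 in ES samples. It was detected on every embryo array and on neither ES array. ES cells were at least 7.75-fold lower than 2-cell embryos (adjusted p = 0.0353), a call kept in 6 of 15 alternatives and lost when any 1 of the 4 samples was left out (adjusted p up to 0.553). Interphase transfer embryos exceeded drug controls by 2.84 ± 0.98 (adjusted p = 0.0461), kept in 7 of 17 alternatives and lost without interphase transfer sample A or either drug control sample. M phase transfer embryos lay below interphase transfer embryos with a difference of -3.07 ± 0.85 (adjusted p = 0.0141), lost without interphase transfer sample A. A second probe agreed in sign, at -2.12 for ES minus 2-cell and 1.89 for interphase transfer minus drug control. The difference of 2-cell embryos from mitotic zygotes, -1.17 ± 0.98 (adjusted p = 0.429), was not called.

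**Figure D4:**
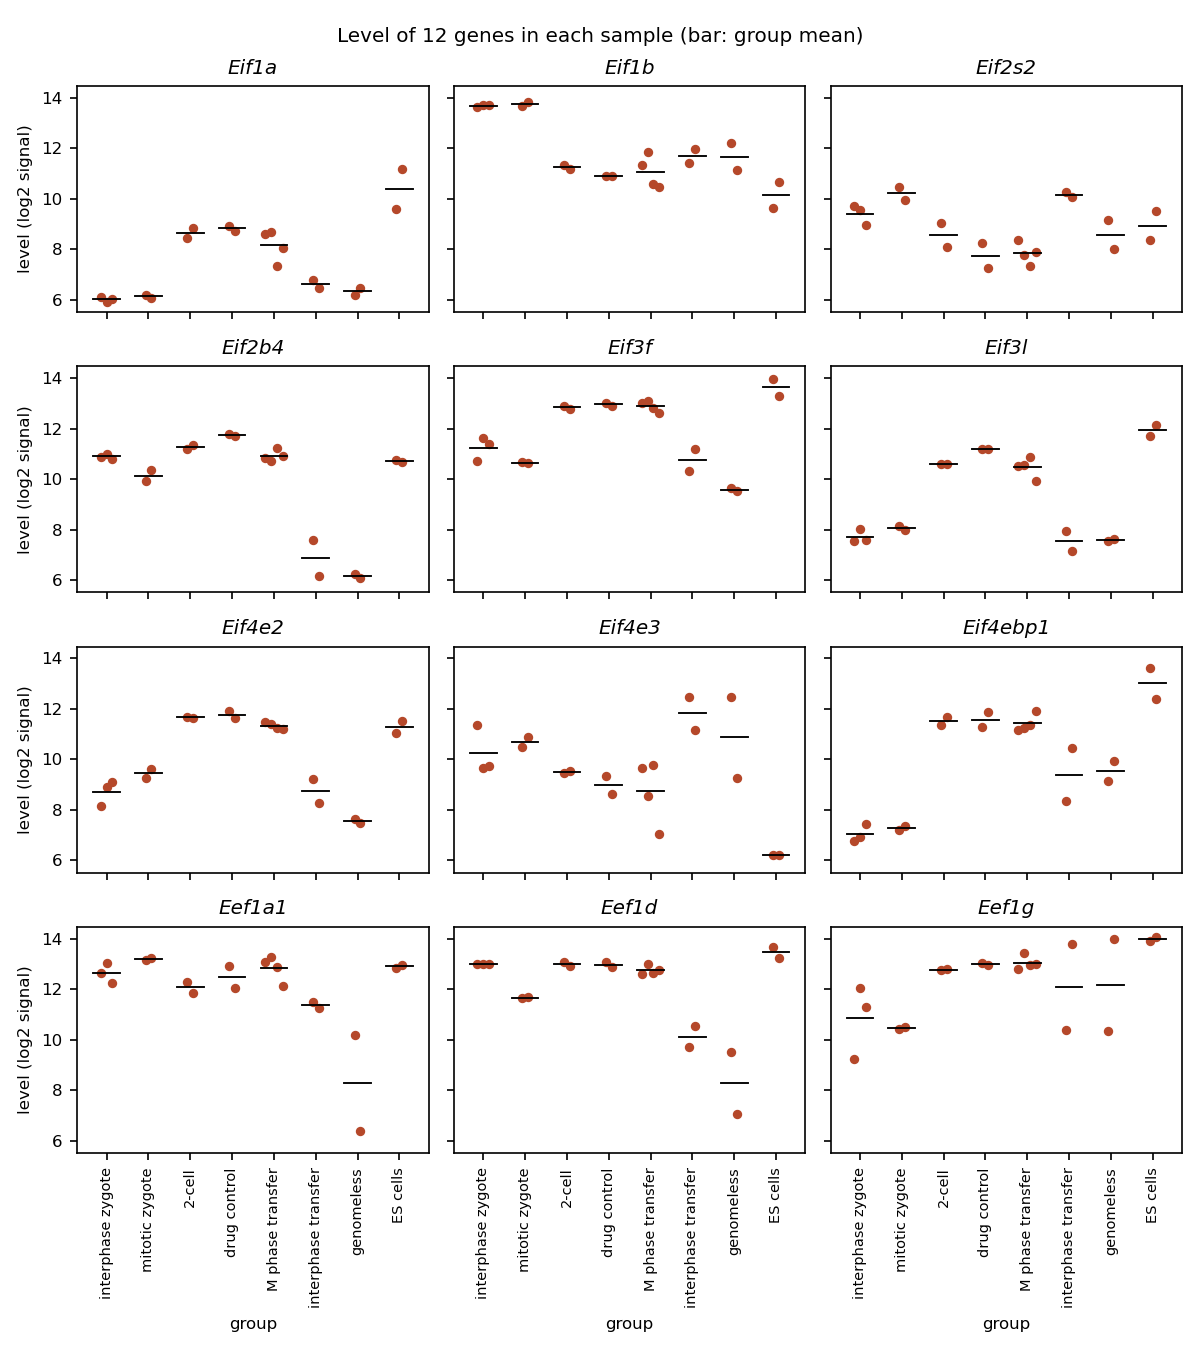
Level (y axis, log2 normalised signal) of 12 genes in each sample by group (x axis). Points are samples and bars are group means. Eif1a, Eif3l, Eif4e2 and Eif4ebp1 are higher in 2-cell, drug control, M phase transfer and ES samples, Eif1b is highest in zygotes, and Eif4e3 is lowest in ES cells.

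The eIF4E-binding proteins keep eIF4E from the scaffold eIF4G until mTOR phosphorylates them. Eif4ebp1 (chr8:27260327-27275656, GRCm38.p6) had the largest measured difference of the 54 genes between mitotic zygotes and 2-cell embryos. Its level was 6.75, 6.92 and 7.43 in interphase zygotes, 7.20 and 7.34 in mitotic zygotes, 11.37 and 11.68 in 2-cell embryos and 11.27 and 11.86 in drug controls. It was 11.18, 11.24, 11.38 and 11.90 in M phase transfer, 8.34 and 10.45 in interphase transfer, 9.14 and 9.95 in genomeless and 13.62 and 12.39 in ES samples. Genomeless and interphase transfer samples thus lay between the zygotes and the other groups, without overlap. The difference was 4.26 ± 0.58 (adjusted p = 0.000121) for 2-cell minus mitotic zygote. It was also the only member called higher in genomeless embryos than in mitotic zygotes, by 2.27 ± 0.58 (adjusted p = 0.0135), and by 1.87 ± 0.49 (adjusted p = 0.0174) without the dim arrays. The call was kept in 10 of 17 alternatives (differences 0.42 to 2.93). It was lost with median scaling, the deposited scaled values, chip as a block, array weights, and without either mitotic sample or genomeless sample B. Drug controls still exceeded genomeless embryos by 2.02 ± 0.58 (adjusted p = 0.0157).

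Eif4ebp2 was 8.68, 7.45 and 7.75 in interphase zygotes, 7.71 and 7.94 in mitotic zygotes, 8.97 and 8.88 in 2-cell embryos and 9.39 and 8.48 in drug controls. It was 9.89, 9.61, 9.12 and 9.22 in M phase transfer, 9.64 and 6.86 in interphase transfer, 10.38 and 9.03 in genomeless and 10.15 and 9.54 in ES samples. Genomeless samples exceeded mitotic zygotes by 1.88 ± 0.71 (adjusted p = 0.0779), which missed the threshold with both samples and passed it without the dim arrays (2.56 ± 0.52, adjusted p = 0.00502). Eif4ebp3 was detected on 5 of 21 arrays. It was 6.33, 6.31 and 6.31 in interphase zygotes, 6.58 and 6.33 in mitotic zygotes, 6.60 and 6.32 in 2-cell embryos and 6.59 and 6.35 in drug controls. It was 6.36, 6.19, 6.08 and 5.84 in M phase transfer, 5.95 and 5.80 in interphase transfer, 5.93 and 5.88 in genomeless and 6.78 and 6.66 in ES samples, and it was called in no comparison.

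Of the other eIF4 genes, Eif4h and Eif4a3 were called most often. Eif4h, a cofactor of the eIF4A helicase, was 10.20, 10.55 and 10.50 in interphase zygotes, 9.50 and 9.56 in mitotic zygotes, 12.20 and 12.24 in 2-cell embryos and 12.20 and 11.67 in drug controls. It was 12.53, 12.33, 11.18 and 11.06 in M phase transfer, 8.76 and 9.57 in interphase transfer, 8.50 and 5.82 in genomeless and 12.13 and 12.25 in ES samples. It rose by 2.69 ± 0.68 (adjusted p = 0.00889) to the 2-cell stage, a call lost without mitotic sample A+C or 2-cell sample B, and drug controls exceeded genomeless embryos by 4.78 ± 0.68 (adjusted p = 0.00014). Eif4a3, a helicase of the exon junction complex, was 8.06, 8.31 and 8.07 in interphase zygotes, 8.24 and 8.31 in mitotic zygotes, 10.75 and 10.71 in 2-cell embryos and 11.10 and 10.30 in drug controls. It was 10.62, 11.33, 10.83 and 10.40 in M phase transfer, 8.01 and 7.43 in interphase transfer, 6.44 and 6.08 in genomeless and 9.52 and 10.56 in ES samples. It rose by 2.45 ± 0.40 (adjusted p = 0.000443) to the 2-cell stage, was at least 6.42-fold higher in drug controls than in genomeless embryos (adjusted p = 2.98e-06), and M phase exceeded interphase transfer embryos by 3.07 ± 0.34 (adjusted p = 1.66e-05). The helicases Eif4a1 and Eif4a2, the cofactor Eif4b and the scaffolds Eif4g2 and Eif4g3 were called in no comparison.

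Eif6, which keeps free large subunits from joining too early, was detected on all arrays. It was 11.43, 12.03 and 12.10 in interphase zygotes, 12.40 and 12 in mitotic zygotes, 13.24 and 13.06 in 2-cell embryos and 12.78 and 12.78 in drug controls. It was 12.64, 12.49, 13.15 and 13.10 in M phase transfer, 10.66 and 11.17 in interphase transfer, 8.21 and 9.61 in genomeless and 11.62 and 11.17 in ES samples. Genomeless samples were lowest, without overlap with any other group, and the brighter genomeless array had the lowest value of all. Interphase transfer samples came next, with the higher of them equal to ES sample B at 11.17. The difference was -3.29 ± 0.42 (adjusted p = 0.000265) for genomeless minus mitotic zygote, 2.0 ± 0.42 (adjusted p = 0.042) for interphase transfer minus genomeless and -1.76 ± 0.42 (adjusted p = 0.011) for ES cells minus 2-cell embryos. The call between interphase transfer and genomeless embryos was kept in 10 of 17 alternatives, and that for ES cells was lost without either 2-cell sample or ES sample B. Eif5a, which eases peptide bond formation at difficult sequences, ranged from 6.25 to 11.13 and was called in no comparison.

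Among the 7 genes grouped as elongation factors by symbol, none was called between mitotic zygotes and 2-cell embryos. In genomeless embryos 4 of the 7 were lower than in mitotic zygotes, beside 13.5% of all genes. The 4 include Eef1e1, which has the symbol but is a part of the aminoacyl tRNA synthetase complex. Without the dim arrays Eef1e1 and Eef2 (-0.99 ± 0.54, adjusted p = 0.227) lost that call, and with chip as a block all 4 did. Eef1a1 (chr9:78478453-78481724, GRCm38.p6), which delivers aminoacyl tRNAs, was 12.64, 13.02 and 12.24 in interphase zygotes, 13.17 and 13.23 in mitotic zygotes, 12.29 and 11.86 in 2-cell embryos and 12.90 and 12.03 in drug controls. It was 13.08, 13.29, 12.86 and 12.11 in M phase transfer, 11.48 and 11.27 in interphase transfer, 10.18 and 6.37 in genomeless and 12.85 and 12.95 in ES samples. The difference from mitotic zygotes was -4.92 ± 0.82 (adjusted p = 0.00129) in genomeless embryos, and -3.02 ± 0.49 (adjusted p = 0.00158) without the dim arrays. A second probe gave -4.94. Drug controls exceeded genomeless embryos by 4.19 ± 0.82 (adjusted p = 0.00151). Genes of the Eef1a family have many processed copies in the genome, and signal from such copies cannot be separated by the files used.

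Eef1d, an exchange factor for eEF1A, was 12.99, 13 and 12.99 in interphase zygotes, 11.64 and 11.69 in mitotic zygotes, 13.09 and 12.93 in 2-cell embryos and 13.09 and 12.86 in drug controls. It was 12.60, 12.98, 12.64 and 12.74 in M phase transfer, 9.69 and 10.55 in interphase transfer, 9.51 and 7.05 in genomeless and 13.68 and 13.24 in ES samples. Genomeless and interphase transfer samples reached at most 10.55 and all others at least 11.64. The difference was -3.39 ± 0.55 (adjusted p = 0.00111) for genomeless minus mitotic zygote (-2.15 ± 0.27 without the dim arrays), 4.70 ± 0.55 (adjusted p = 2.69e-05) for drug control minus genomeless and 2.62 ± 0.47 (adjusted p = 0.000885) for M phase minus interphase transfer. Eef1b2, another exchange factor, was 9.05, 8.42 and 8.95 in interphase zygotes, 10.03 and 9.31 in mitotic zygotes, 9.06 and 8.94 in 2-cell embryos and 8.63 and 8.87 in drug controls. It was 9.26, 9.88, 9.76 and 9.79 in M phase transfer, 9.86 and 9.41 in interphase transfer, 8.64 and 6.70 in genomeless and 6.35 and 12.73 in ES samples. The ES samples were its lowest and highest values, and it was called in no comparison.

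Eef1g, the structural subunit of the exchange complex, was 9.23, 12.06 and 11.31 in interphase zygotes, 10.41 and 10.52 in mitotic zygotes, 12.75 and 12.78 in 2-cell embryos and 13.05 and 12.95 in drug controls. It was 12.79, 13.45, 12.95 and 12.99 in M phase transfer, 10.39 and 13.79 in interphase transfer, 10.35 and 13.97 in genomeless and 13.90 and 14.06 in ES samples. The high value in each of the genomeless and interphase transfer groups came from the dim array, and with these arrays kept the gene was called in no comparison. Leaving out the dim arrays keeps only sample A in each of these groups. The log2 difference was then 2.65 for drug control minus genomeless, -2.61 for interphase transfer minus drug control and 2.65 for M phase minus interphase transfer. Eef1a2, the eEF1A form of adult muscle and neurons, was 6.04 and 10.03 in genomeless and 6.16 and 9.82 in interphase transfer samples, where the high values again belong to the dim arrays. It was 5.94, 6.10 and 6.20 in interphase zygotes, 6.30 and 6.02 in mitotic zygotes, 6.28 and 6.93 in 2-cell embryos and 6.27 and 6.65 in drug controls. In M phase transfer it was 6.08, 6.03, 6.22 and 6.63 and in ES cells 7.18 and 6.11. It was detected on 4 of 21 arrays and called in no comparison.

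Eef1e1, a part of the aminoacyl tRNA synthetase complex, was 10.04, 10.47 and 10.77 in interphase zygotes, 9.66 and 9.45 in mitotic zygotes, 8.76 and 8.89 in 2-cell embryos and 8.26 and 8.69 in drug controls. It was 7.63, 8.31, 8.39 and 8.52 in M phase transfer, 6.35 and 8.12 in interphase transfer, 7.77 and 6.23 in genomeless and 7.07 and 9.48 in ES samples. All zygote samples had at least 9.45, a level that ES sample B also reached, and the drop to genomeless embryos was -2.55 ± 0.71 (adjusted p = 0.0212) with both samples and -1.79 ± 0.71 (adjusted p = 0.0926) without the dim arrays. Eef2, which moves the ribosome along the mRNA, was 7.77, 8.07 and 8.16 in interphase zygotes, 9.28 and 9.09 in mitotic zygotes, 10.09 and 10.21 in 2-cell embryos and 10.52 and 10.58 in drug controls. It was 10.80, 10.81, 10.52 and 9.83 in M phase transfer, 8.98 and 7.77 in interphase transfer, 8.20 and 6.91 in genomeless and 10.17 and 11.79 in ES samples. Drug controls exceeded genomeless embryos by 3.0 ± 0.54 (adjusted p = 0.000912) and M phase exceeded interphase transfer embryos by 2.12 ± 0.47 (adjusted p = 0.00379). For drug control minus genomeless, 2 further probes, detected on 5 and 7 arrays, gave 0.14 and -0.86, and for M phase minus interphase transfer 0.34 and -0.71, so these calls rest on the probe with the highest mean, detected on 19 arrays.

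Enzymes that modify elongation factors held both early and late genes. Eef2k, the kinase that inactivates eEF2, was 7.19, 6.73 and 7.31 in interphase zygotes, 7.50 and 6.72 in mitotic zygotes, 5.95 and 6.21 in 2-cell embryos and 6.14 and 6.25 in drug controls. It was 6.17, 6.22, 6.19 and 6.11 in M phase transfer, 7.32 and 6.99 in interphase transfer, 6.39 and 6.09 in genomeless and 6.24 and 5.99 in ES samples. It was detected on all 6 zygote arrays and on 1 other, of interphase transfer, and was at least 1.44-fold lower in 2-cell embryos than in mitotic zygotes (adjusted p = 0.0195), a call lost without mitotic sample A+C or either 2-cell sample (adjusted p up to 0.244 over all alternatives). Interphase transfer embryos were at least 1.37-fold higher than drug controls (adjusted p = 0.0287), a difference that had the opposite sign with chip as a block (-0.85) and lost its call without interphase transfer sample A or either drug control sample.

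Eef1akmt1, which methylates a lysine of eEF1A, was 6.38, 6.65 and 6.27 in interphase zygotes, 5.98 and 6.30 in mitotic zygotes, 8.96 and 9.21 in 2-cell embryos and 9.29 and 9.34 in drug controls. It was 7.98, 8.76, 8.56 and 10.48 in M phase transfer, 5.79 and 5.87 in interphase transfer, 5.90 and 6.25 in genomeless and 9.92 and 8.66 in ES samples. It was at least 6.12-fold higher in 2-cell embryos than in mitotic zygotes (adjusted p = 0.00229) and at least 2.76-fold higher in M phase than in interphase transfer embryos (adjusted p = 0.000471). Eef1aknmt, which methylates the amino terminus and a lysine of eEF1A, was 6.18, 6.14 and 6.10 in interphase zygotes, 6.43 and 6.25 in mitotic zygotes, 8.83 and 9.13 in 2-cell embryos and 9.11 and 9.27 in drug controls. It was 8.69, 8.69, 8.0 and 7.73 in M phase transfer, 6.18 and 6.93 in interphase transfer, 7.41 and 6.51 in genomeless and 8.95 and 8.03 in ES samples. It was at least 5.69-fold higher in 2-cell embryos than in mitotic zygotes (adjusted p = 0.000403). Eef2kmt, which methylates eEF2, lay between 6.08 and 7.49 and was called in no comparison.

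M phase transfer samples fell apart by chip in some genes, with A and B on chip 5 and C and D on chip 6. Over all kept probes the SD of log2 differences was 0.361 between A and B and 0.74 between C and D. It was 0.773 to 0.929 between samples of different chips. Eif3k had 8.42, 8.41, 10.86 and 11.62, a mean of 8.41 on chip 5 and 11.24 on chip 6. Eif2b2 had 7.17, 7.30, 9.26 and 9.74 (means 7.23 and 9.50) and Eif5a 8.99, 8.98, 11.13 and 10.29 (8.98 and 10.71). Eif5 was higher on chip 5 (mean 11.57) than on chip 6 (10.00), as was Eif4h (12.43 and 11.12). Interphase transfer samples, A on chip 5 and B on chip 6, differed the same way in Eif3k (8.19 and 11.36) and Eif2b2 (6.01 and 9.04). So did Eif5a (8.73 and 10.57) and Eif5 (8.32 and 6.12), while Eif4h differed the opposite way (8.76 and 9.57). The genomeless samples, on the same chips, differed the same way in Eif2b2 (6.12 and 8.20), Eif5 (10.12 and 8.31) and Eif4h (8.50 and 5.82). They differed the opposite way in Eif3k (7.65 and 6.54) and Eif5a (8.85 and 6.25). The part of the chip in the group comparisons that span chips was not tested beyond the block and within-chip values given.

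**Figure D5:**
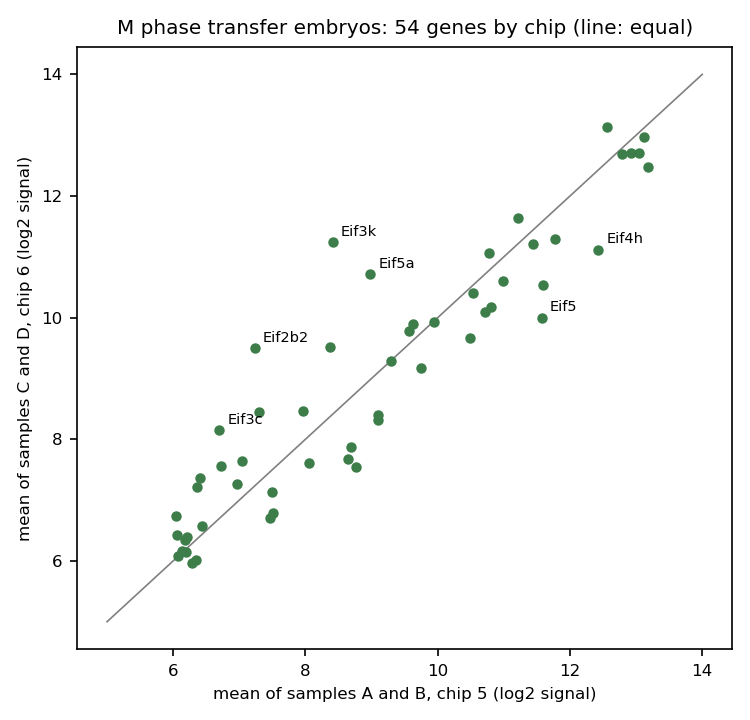
Mean level of each of the 54 genes in M phase transfer samples on chip 5 (x axis, samples A and B) and on chip 6 (y axis, samples C and D), both log2 normalised signal, with the line of equal levels. Eif3k (8.41 and 11.24) and Eif2b2 (7.23 and 9.50) lie farthest above the line and Eif5 (11.57 and 10.00) farthest below it.

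Other genes of the translation pathway were taken from 4 lists (termination and recycling, poly(A) partners, regulators, mitochondrial factors). Of 17 tested regulators and modifying enzymes, 6 were higher (35.3%) and 0 lower in 2-cell embryos than in mitotic zygotes, beside 13.9% and 13.8% of all genes. In drug controls 9 were higher (52.9%) and 0 lower than in genomeless embryos, beside 19.3% and 11.4%. In M phase 7 were higher (41.2%) and 0 lower than in interphase transfer embryos, beside 17.8% and 11.4%. Ppp1r15b, a subunit of the phosphatase that reverses eIF2 phosphorylation, rose by 3.56 ± 0.39 (adjusted p = 1.86e-05) to the 2-cell stage. Dph2, needed for the diphthamide residue of eEF2, rose by 3.04 ± 0.40 (adjusted p = 9.53e-05), and Dohh, which completes the hypusine residue of eIF5A, was at least 3.62-fold higher (adjusted p = 0.00645). Of 8 tested poly(A) and mRNA-binding partners, 1 was higher (12.5%) and 3 lower (37.5%) at the 2-cell stage, among them Cpeb1, which controls cytoplasmic polyadenylation, at -1.96 ± 0.54 (adjusted p = 0.015). Cpeb1 was also lower in drug controls than in genomeless embryos, at -3.77 ± 0.54 (adjusted p = 0.000157). Of 7 termination and recycling genes 1 was higher (14.3%, near the 13.9% of all genes) and 2 lower (28.6%), with the release factor Etf1 at 1.30 ± 0.30 (adjusted p = 0.00536) and its partner Gspt2 at -2.68 ± 0.92 (adjusted p = 0.0422). Of 9 mitochondrial translation factors 2 were higher and 2 lower (22.2% each), among them Tufm, the mitochondrial counterpart of eEF1A, at 2.77 ± 0.78 (adjusted p = 0.0168), and Mtif3 at -2.26 ± 0.39 (adjusted p = 0.000707).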

How the data were processed

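The deposited table holds, for each array, an intensity per probe that the authors background-subtracted and did not normalise, with a detection p-value, exported by GenomeStudio per the file headers and the submitters' processing notes (version not given). The second deposited table holds the same intensity values multiplied by 1 factor per array, as a comparison of its columns with the first table showed (mean 198.09 on each array), and served as an alternative. RNA was isolated with PicoPure and labelled by Illumina's protocol, per the labels' protocols.

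Background was modelled with normexp (offset 50), arrays were quantile-normalised and values taken to log2 (limma 3.58.1, R 4.3.3). Of 24613 probes, the 11541 detected (p below 0.01) on 2 or more of the 21 arrays were kept. Symbols came from the platform annotation, where 20984 probes had 1 symbol, 1 several and 3628 none, and a gene was represented by its probe with the highest mean over all samples (8527 genes). Close pairs of arrays (SD of log2 differences below 0.2) were averaged. Group means of all 19 samples were fitted in 1 model with limma's moderated test (11 residual degrees of freedom) and Benjamini-Hochberg adjustment over the 8527 genes, called below 0.05. The number of arrays limits the precision.

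Values in every sample are given for the eIF1, eIF1A, eIF4E, 4E-BP and elongation factor genes and eEF2 kinase, and for up to 6 called genes in each direction of each comparison with the largest differences. Members, gene lists and alternatives were chosen with earlier results of these data known. Eif3k, Eif2b2 and Eif5a were named in the account of chips after their values were seen. The alternatives were floored signal, neqc, median scaling, the deposited scaled values, other probe filters, the mean of a gene's probes, all arrays as separate samples, chip and replicate blocks, array weights and leaving out samples.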

Additional observations from a re-analysis of the deposited data

Results flagged for a closer look

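In the M phase transfer group of 4 samples, sample D stood apart from the other 3 in 3 of the 54 genes by Dixon's ratio at its usual critical value. By chance this test picks out about 1 in 20 groups, so the count is near what chance gives. The share over all genes tested was not computed. Eif2b3, the gamma subunit of eIF2B, was 10.21 in sample D and 9.57 to 9.66 in the others (ratio 0.863). Eif2b5, the epsilon subunit, was 9.33 in sample D and 10.65 to 10.85 in the others (ratio 0.87). Eif4b was 6.59 in sample D and 6.21 to 6.22 in the others (ratio 0.964), and was detected on none of the 4 arrays. Sample D had the lowest mean signal of its group (73.0), whose part in these values was not tested. The groups of 2 and 3 samples were not examined in this way.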

How the results depend on the processing

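Of 642 called values of named genes recomputed under the alternatives that kept all samples or dropped the dim arrays, 541 kept direction and call, 100 kept direction only and 1 reversed (Eef2k, interphase transfer minus drug control, -0.85 with chip as a block). Of 224 recomputed without 1 sample, 182 kept the call, 42 lost it and 0 reversed. The causes were not tested.

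Median scaling called 4 members between 2-cell embryos and mitotic zygotes, 11 between genomeless embryos and mitotic zygotes, 14 between interphase transfer and drug control, 0 between interphase transfer and genomeless and 1 between ES cells and 2-cell embryos. Chip as a block called 0 for genomeless minus mitotic zygote, 0 for drug control minus genomeless, 0 for interphase transfer minus drug control and 1 for interphase transfer minus genomeless. Array quality weights called 38 for 2-cell minus mitotic zygote, 14 for mitotic minus interphase zygote, 6 for genomeless minus mitotic zygote, 10 for M phase transfer minus drug control, 15 for interphase transfer minus drug control, 0 for interphase transfer minus genomeless and 8 for ES minus 2-cell. With all 21 arrays as separate samples 2 were called for M phase transfer minus drug control and 4 for interphase transfer minus genomeless. That last comparison gave 0 with floored signal, 1 with neqc, 1 with detection on at least 4 arrays and 1 with the mean of a gene's probes. The counts here, and those for left-out samples below, are of members alone. The share of all genes called under each setting is not set beside them. They show how the calls moved with the setting and are not read as a trait of the members.

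Same-lettered samples were not paired by any label and did not deviate together (mean correlation 0.02 over 62 pairs, -0.27 to 0.46), while samples on the same chip had a mean correlation of 0.13 over 27 pairs. The replicate block called 16 members for 2-cell minus mitotic zygote (main 15) and 0 for interphase transfer minus genomeless (main 2).

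Leaving out 1 sample gave 9 to 25 calls for genomeless minus mitotic zygote, 0 to 1 for M phase transfer minus drug control (1 without M phase transfer sample C), 15 to 23 for interphase transfer minus drug control, 1 to 10 for interphase transfer minus genomeless and 1 to 5 for ES minus 2-cell.

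Uncalled values of Eif1a changed sign around 0. These were mitotic minus interphase zygote (0.00, floored signal), drug control minus 2-cell (-0.00 with chip as a block, and -0.02 to 0.37 when a sample was left out), genomeless minus mitotic zygote (0.00 floored, -0.16 with chip as a block) and M phase transfer minus drug control (0.01, median scaling). With a detection p below 0.05, the mean number of members detected was 46.3 in interphase zygotes, 48.3 in mitotic zygotes, 50.5 in 2-cell embryos and 50.0 in drug controls. Dim signal limits what the genomeless and interphase transfer B arrays can show, and values near background have no order.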
